A study of Mus musculus with 2 samples.

Results

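The genes described here encode 9 cell-surface receptors that couple to Gs, the G protein that switches on adenylyl cyclase, and that macrophages are known to use. They were chosen by gene symbol as cAMP-raising receptors other than the melanocortin receptors. The list holds the prostanoid receptors Ptger2, Ptger4 and Ptgir, the adenosine receptors Adora2a and Adora2b, the amine receptors Adrb1 and Hrh2, and the peptide receptors Vipr1 and Calcrl. A named probe set was at hand for 6 of the 9 among 19505 named genes. Adora2a, Adora2b and Adrb1 were not analysed here.

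The cells were mouse bone marrow cells turned into macrophages with M-CSF, a growth factor of this lineage. It was added on day 0 and again on day 3 to 25 ng/mL, and experiments began from day 5. Fetal bovine serum was at 10% for both groups. The genotypes were LysM (+);MC4RTB/TB, abbreviated to LysM(+), and MC4RTB/TB, abbreviated to TB/TB. Both groups are thus labelled homozygous for the TB allele of the melanocortin 4 receptor gene and differ in LysM. As background, such an allele is known as one held silent until Cre recombinase excises a transcriptional block. LysM (Lyz2) regulatory sequence is widely used to express Cre in myeloid cells. Neither meaning is written out in the labels, which also give neither age nor the number of animals or cultures behind an array. Each group had 1 whole-transcript array. The differences below therefore have no replicate check, error or p-value, and this small number of arrays sets their precision.

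Gs-coupled receptors raise cAMP, which acts through protein kinase A and Epac proteins and is broken down by phosphodiesterases. In macrophages, cAMP raised by prostaglandin E2, adenosine, catecholamines, histamine or neuropeptides is known for dampening the release of inflammatory cytokines such as TNF. The melanocortin receptors use the same route, so the other Gs-coupled receptors of a macrophage feed the same second messenger.

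Only Ptger4 and Calcrl, of the 6 receptors measured, stood above background on both arrays. Background was taken from 23 control probe sets whose names give a GC count, and a gene was called above background when its value exceeded the highest of them on the same array. That limit was 6.81 on the log2 scale on each array, and the controls differed between the arrays by at most 0.09. By the same rule 41.5% of all named genes were above background on both arrays. Ptger2 lay near the limit, and Ptgir, Hrh2 and Vipr1 lay inside the range of the controls. Each probe set responds in its own way, so the log2 value of one receptor gives no abundance relative to another, and values are compared only with background or between the arrays.

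**Figure D1:**
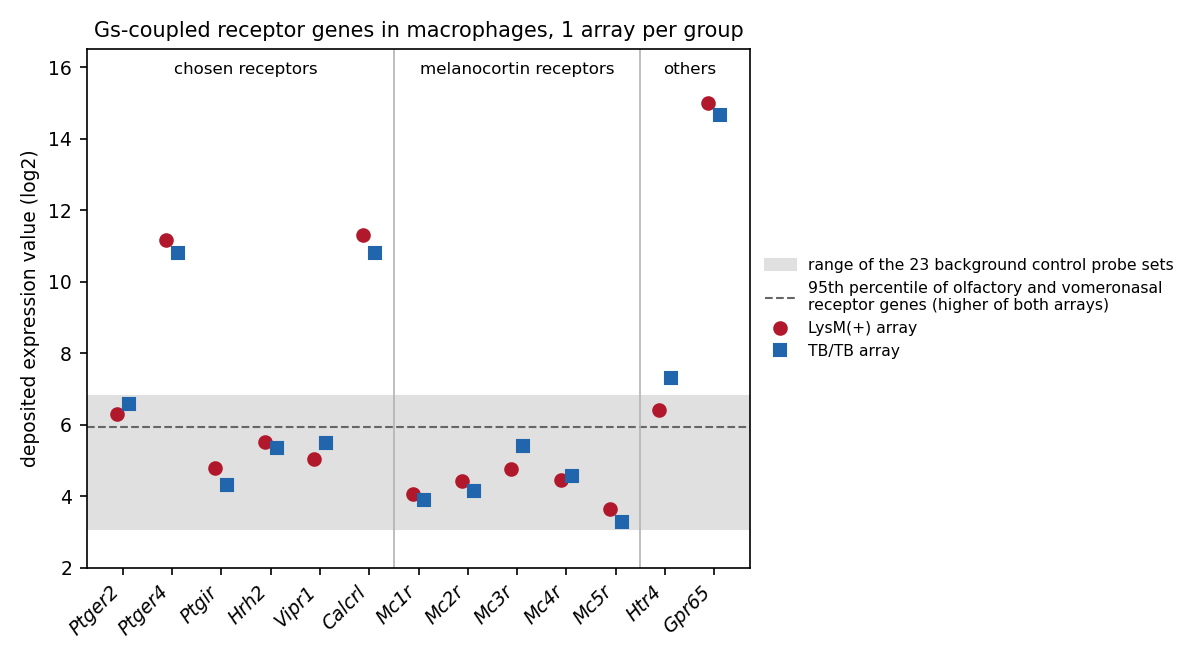
Deposited log2 expression value (vertical axis) of each receptor gene in LysM(+) (circles) and TB/TB (squares), 1 array per group. The grey band spans the 23 background control probe sets, from 3.09 to 6.81, and the dashed line marks the 95th percentile of olfactory and vomeronasal receptor genes on the array where it was higher (5.95). Ptger4, Calcrl and Gpr65 lie above the band on both arrays, Htr4 on the TB/TB array only, and all 5 melanocortin receptors lie inside it.

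The sequences before the transcription starts of these receptors are shown for the pair above background, Ptger4 and Calcrl, and for Ptger2, the other receptor for prostaglandin E2, which was not above it. The 250 bases come from RefSeq on GRCm38.p6, 5′ to 3′ on the gene's strand, and end at the start listed there. Capitals mark a GC box, spelled GGGCGG and searched on both strands. Ptger4 lies on the minus strand (chr15:5244188-5244437), Calcrl on the minus strand (chr2:84425267-84425516) and Ptger2 on the plus strand (chr14:44987861-44988110).
Ptger4: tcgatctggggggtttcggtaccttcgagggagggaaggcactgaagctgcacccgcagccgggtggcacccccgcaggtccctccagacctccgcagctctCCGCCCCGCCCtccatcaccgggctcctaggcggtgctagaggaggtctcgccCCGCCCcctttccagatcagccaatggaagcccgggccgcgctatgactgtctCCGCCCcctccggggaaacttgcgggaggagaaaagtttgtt
Calcrl: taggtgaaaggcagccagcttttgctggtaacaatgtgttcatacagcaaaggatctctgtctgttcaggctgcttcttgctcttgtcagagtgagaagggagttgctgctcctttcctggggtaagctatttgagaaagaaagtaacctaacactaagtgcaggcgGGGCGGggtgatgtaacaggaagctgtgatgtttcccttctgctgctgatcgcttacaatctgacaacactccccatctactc
Ptger2: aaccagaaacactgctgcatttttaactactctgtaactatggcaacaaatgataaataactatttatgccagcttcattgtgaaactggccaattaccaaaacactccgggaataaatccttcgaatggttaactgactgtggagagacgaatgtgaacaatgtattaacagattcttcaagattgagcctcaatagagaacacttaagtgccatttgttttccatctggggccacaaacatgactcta
The Ptger4 window had a GC content of 66.8% and 4 GC boxes, the first pair of which share 1 base. The Calcrl window had a GC content of 48.4% and 1 GC box, and the Ptger2 window one of 38.0% and 0 GC boxes. Among the other receptors not above background, the Vipr1 window had 72.8% and 3 GC boxes, and the Ptgir window 63.6% and 2. Hrh2 has 2 listed starts, whose windows had 60.0% and 59.6% and 1 GC box each. A GC box was found in 5 of the 6 measured receptors and in 32.7% of all 32851 RefSeq windows of this length. The full cAMP response element TGACGTCA was found in 0 of the 6 and in 1.55% of all windows. Its first 5 bases, TGACG, known as a partial site, was found in 1 of the 6, Vipr1, and in 17.8% of all windows. The core GAGGAA, which the myeloid factor PU.1 is known to bind, was found in 2 of the 6, Ptgir and Hrh2, and in 23.3% of all windows. These matches describe the letters in the windows and show no binding.

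Among the prostanoid receptors, the values set Ptger4 apart from background and placed Ptger2 and Ptgir at or inside it. Ptger4 encodes EP4, a receptor for prostaglandin E2 that raises cAMP. Its log2 value was 11.16 in LysM(+) and 10.81 in TB/TB, 4.34 and 3.99 above the highest control. It was 1.27-fold brighter on the LysM(+) array, a difference of 0.35. Ptger2 encodes EP2, the other Gs-coupled receptor for the same prostaglandin. Its values were 6.30 in LysM(+) and 6.58 in TB/TB, a difference of -0.28. They exceeded 16 and 21 of the 23 controls, and 98.6% and 98.2% of the 1410 olfactory and vomeronasal receptor genes, which are mostly silent outside sensory tissue. The highest controls exceeded Ptger2 by 0.52 and 0.24, so its call depends on the limit: by the 95th percentile of the olfactory and vomeronasal genes (5.82 on LysM(+), 5.95 on TB/TB) it would be above background on both arrays. Ptgir encodes the prostacyclin receptor. Its values of 4.79 and 4.32 exceeded 10 and 9 of the 23 controls, and 71.8% and 44.4% of the olfactory and vomeronasal genes. It was 1.39-fold brighter on the LysM(+) array at a level where neither array separated it from silent genes.

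Calcrl was the other receptor above background, and the probe set of Ramp1, a partner that sets its ligand, was dimmer on the array where Calcrl was brighter. Calcrl encodes a receptor that binds CGRP when paired with RAMP1 and adrenomedullin when paired with RAMP2 or RAMP3. Its values were 11.32 in LysM(+) and 10.79 in TB/TB, 4.50 and 3.97 above the highest control. The difference of 0.53, or 1.44-fold, was the largest of the 6 receptors as deposited and after centring, whereas after quantile normalization or loess that of Ptgir was larger (0.55 against 0.45, and 0.56 against 0.40). A gene was counted as differing from 1.5-fold upward, provided that the brighter array was above background, and Calcrl stayed under that fold. Ramp1 had values of 7.56 and 8.53 and was 1.96-fold dimmer on the LysM(+) array. It passed 1.5-fold under each of the 3 other scalings tried (centring on the median, quantile normalization, and loess, which removes the trend of the difference with brightness). Ramp2, at 3.30 and 3.52, and Ramp3, at 4.99 and 5.18, were not above background on either array. Crcp, whose product helps couple the receptor to Gs, had values of 7.73 and 8.10. Of these 4 partner genes 0 were counted as higher and 1, Ramp1, as lower, with a median difference of -0.29. Over all named genes 5.07% were counted as higher and 1.91% as lower, and the median difference was -0.01. All 5 peptide ligand genes measured were below background on both arrays, as were 10799 of the 19505 named genes. The 5 were Vip, Adcyap1, Adm, Adm2 and Calcb, whose values ran from 3.54 to 5.43. Calca, a CGRP gene also on that list, was not analysed here.

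Calcrl is also a gene of endothelial cells, and markers of those cells were mostly dim. Of 9 endothelial markers measured, 1 was above background on both arrays (Vwf, 7.27 and 8.18) and 1 on the TB/TB array only (Kdr, 6.77 and 6.96). Pecam1, Cdh5, Tek, Tie1, Emcn, Esam and Robo4 were not above background on either array. The summed unlogged values of the 9 were 500.2 in LysM(+) and 671.7 in TB/TB, and Vwf, 1.88-fold dimmer in LysM(+), was the 1 marker counted as differing. Over all named genes, 41.5% were above background on both arrays, 5.07% were counted as higher and 1.91% as lower. The median difference of the 9 was -0.08. Their part in the Calcrl difference was not tested. In cultures measured in bulk, fewer cells of a type and less RNA per cell cannot be told apart.

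Hrh2 and Vipr1 were not above background. Hrh2 encodes the histamine H2 receptor, and its values were 5.51 and 5.35, above 11 of the 23 controls on each array. They exceeded 90.7% (LysM(+)) and 84.7% (TB/TB) of the olfactory and vomeronasal genes. Vipr1 encodes VPAC1, a receptor for the neuropeptides VIP and PACAP. Its values were 5.05 in LysM(+) and 5.48 in TB/TB, again above 11 controls on each, and exceeded 80.7% and 88.0% of the silent receptor genes. The differences of 0.15 for Hrh2 and -0.43 for Vipr1 lay within the spread of genes below background on both arrays. Of those 10799 genes, 32.6% were apart by 25% or more in either direction, and the central 90% lay between -0.64 and 0.50.

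How dim the dim receptors are depends on which controls are compared. The controls were brightest at both ends of the GC scale. Those with a GC count of 8 to 18 reached 4.89 in LysM(+) and 4.88 in TB/TB, whereas the highest control of all had a GC count of 4. Against that central range, a limit chosen after the values were seen, 5 of the 6 receptors would be above background on both arrays, but so would 65.9% of all named genes. Ptgir would not, since its value on each array lay below that limit. The GC count of the receptors' own probes was not used here.

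**Figure D2:**
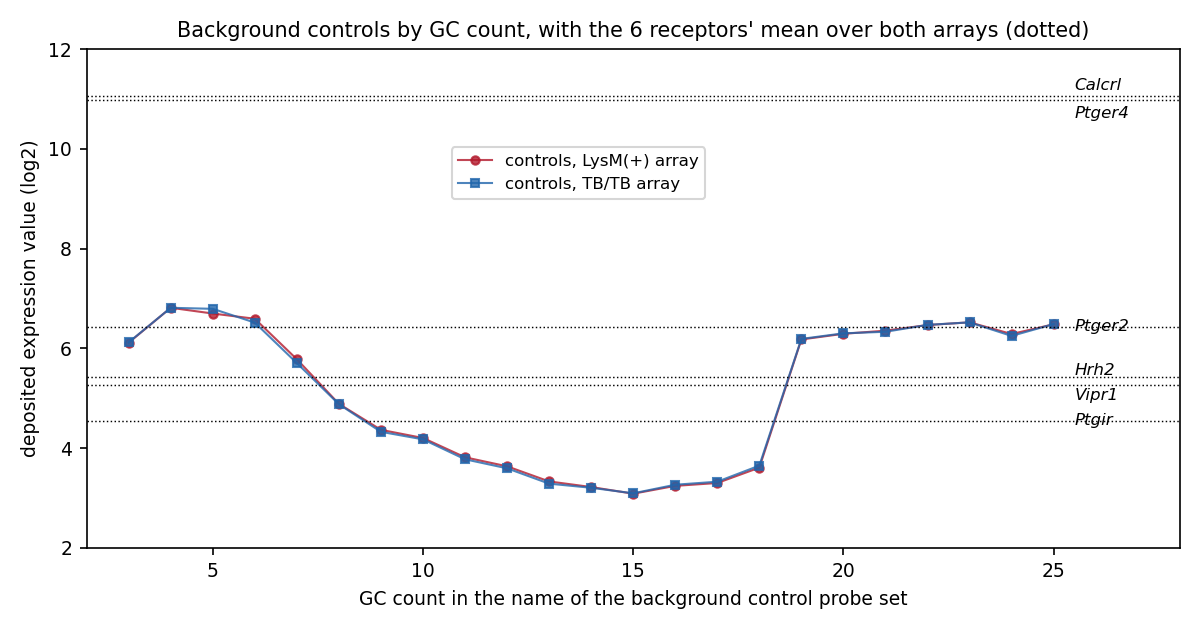
Deposited log2 value (vertical axis) of the 23 background control probe sets against the GC count in their names (horizontal axis, 3 to 25) in LysM(+) (circles) and TB/TB (squares). Dotted lines mark the mean of both arrays for each of the 6 receptors measured. Ptger4 (10.98) and Calcrl (11.05) lie above every control, Ptger2 (6.44) lies among the brightest, and Hrh2 and Vipr1 lie above the controls with a GC count of 8 to 18 and Ptgir above most of them, and all 3 lie below the controls at both ends.

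Few other receptors of this class stood above background. None of the 5 melanocortin receptor genes was above background (0 of 5, values from 3.29 to 5.40). Mc4r had values of 4.45 and 4.57, so this probe set cannot be used to test the labelled genotypes. Mc1r had 4.07 and 3.89, Mc2r 4.42 and 4.14, and Mc5r 3.63 and 3.29. Mc3r, at 4.76 and 5.40, was 1.55-fold apart below background. Of 31 other Gs-coupled receptors measured, 1 was above background on both arrays. This was Gpr65, a receptor that senses extracellular acid, with values of 14.99 in LysM(+) and 14.65 in TB/TB, a difference of 0.34. Htr4, a serotonin receptor, was above background on the TB/TB array only, with values of 6.41 and 7.30, and was the 1 receptor of these 31 counted as differing, 1.86-fold dimmer on the LysM(+) array. Over all 42 Gs-coupled receptors measured, 3 (7.14%) were above background on both arrays, against 41.5% of all named genes. With the median of named genes or the 95th percentile of the olfactory and vomeronasal genes as the limit, 6 of the 42 were above it, beside 47.8% and 50.6% of all genes, Ptger2, Drd5 and Htr4 being added. With the controls of central GC count as the limit, 14 of the 42 were above it, beside 65.9%. The median difference of the 31 others was -0.04, which became positive (at most 0.02) under the other scalings.

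Receptors for the same ligands or for other prostanoids that do not act mainly through Gs were also mostly dim. Ptgfr, Tbxa2r and Ptgdr2 are those for other prostanoids. Of 16 listed, 6 were not analysed here, the adenosine receptor genes Adora1 and Adora3 among them. Of 10 measured, 1 (beside 41.5% of all named genes) was above background on both arrays. This was Ptger1, which encodes EP1, a prostaglandin E2 receptor that acts through calcium, with values of 7.77 and 7.81. The other 9 were below background on both arrays, and 0 of the 10 were counted as differing.

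None of the 6 receptors differed by 1.5-fold above background (0 higher and 0 lower), where 5.07% of all named genes were counted as higher on the LysM(+) array and 1.91% as lower. The 1362 genes so counted split 72.6% to 27.4% toward higher on the LysM(+) array, and the 1273 genes counted after loess split 54.3% to 45.7%. The median difference of the 6 was 0.25, and that of Ptger4 and Calcrl 0.44, beside 0.08 for all genes above background on both arrays. Genes with a mean value from 10 to 12, the range that holds both, were higher by 0.11 at the median, with the central 90% between -0.47 and 0.76. Ptger4 and Calcrl lie within that range. Both pass a lower threshold of a 25% difference on the values as deposited. Of the genes in this range, 27.2% were as much higher on the LysM(+) array and 10.7% as much lower. Of the same genes, 24.5% were at least as much higher as Ptger4 and 13.0% at least as much higher as Calcrl. Ptger4 fell under the 25% threshold after quantile normalization (0.28) and loess (0.22).

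**Figure D3:**
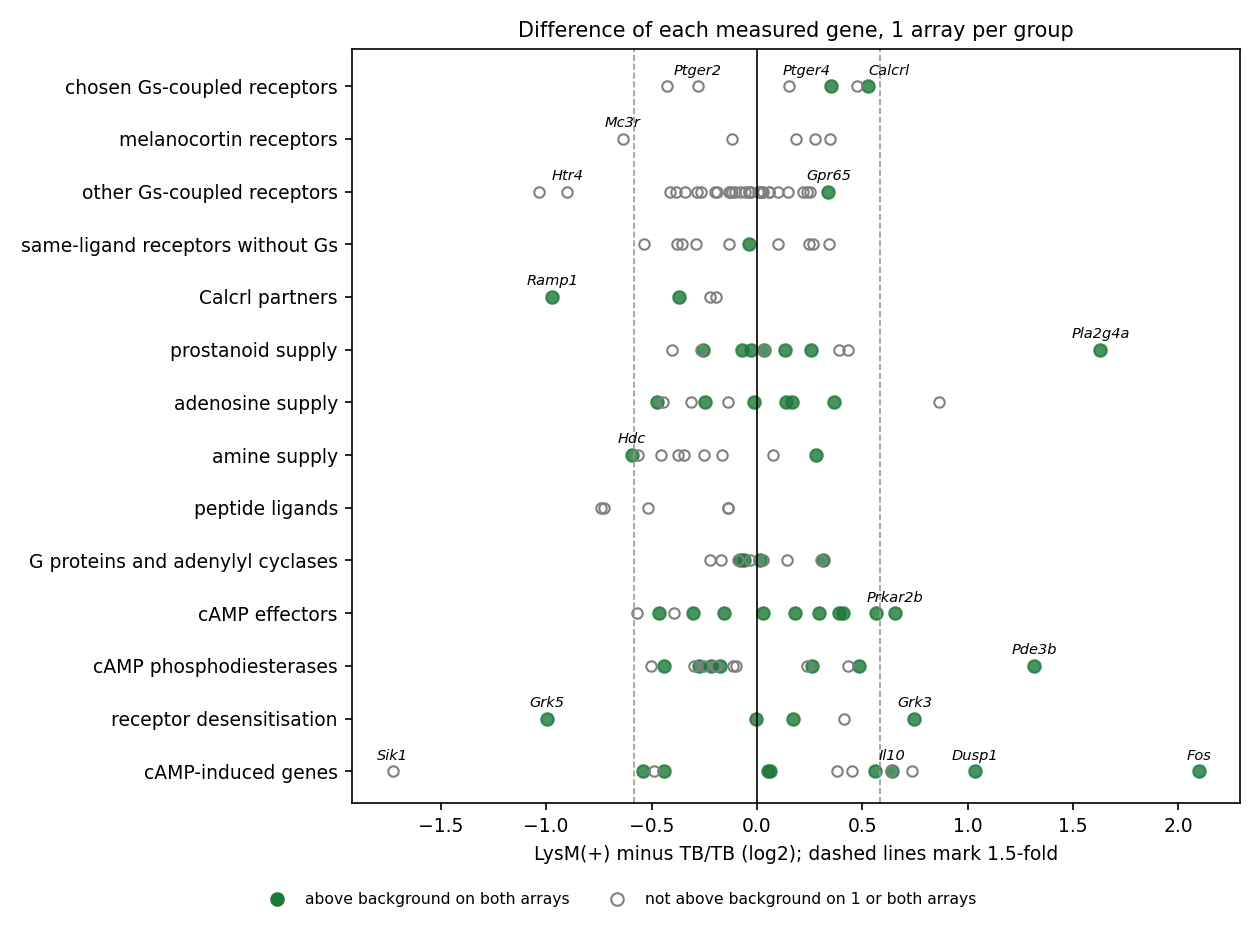
Difference between the LysM(+) and TB/TB arrays on the log2 scale (horizontal axis) for each measured gene, by gene list (rows). Filled points were above background on both arrays, open points were not, and dashed lines mark 1.5-fold. Ptger4 (0.35) and Calcrl (0.53) lie to the right of 0 and inside the lines, Ramp1 (-0.97) lies outside them on the left, and Pla2g4a (1.63) and Pde3b (1.31) lie outside them on the right.

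Of 31 measured genes that make, move or break down the ligands, 2 were counted as differing, a share near that over all named genes (5.07% higher and 1.91% lower). Of 12 prostanoid genes measured, 7 were above background on both arrays (41.5% of all named genes were), 1 was counted as higher on the LysM(+) array and 0 as lower. The one was Pla2g4a, the cytosolic phospholipase that frees arachidonic acid, with values of 10.06 and 8.43, 3.09-fold brighter on LysM(+). Hpgds, which makes prostaglandin D2, had values of 16.42 and 16.44. Hpgd, which degrades prostaglandins, had 15.22 and 15.29, Tbxas1, the thromboxane synthase, 14.06 and 14.03, and the exporter gene Abcc4 9.94 and 9.81. Ptgs2, the inducible cyclooxygenase, and Ptges, the inducible prostaglandin E synthase, both named after their values were seen, were not above background, with 6.13 and 5.73 for Ptgs2 and 5.94 and 6.34 for Ptges. The other cyclooxygenase gene, Ptgs1, was not analysed here. Of 10 adenosine genes, 6 were above background on both arrays and 0 were counted as differing. Entpd1, the ectoenzyme CD39 that starts the breakdown of extracellular ATP, had values of 15.24 and 15.72. Nt5e, the ectoenzyme CD73 that completes it, named after its values were seen, had 3.70 and 4.01 and was not above background. The nucleoside transporter genes Slc29a3 (14.87 and 15.12) and Slc29a1 (a difference of 0.17) and the adenosine kinase gene Adk (9.18 and 9.19) were above it. Of 9 genes of histamine and catecholamine metabolism, 2 were above background on both arrays. Hdc, which makes histamine, had values of 8.06 and 8.65 and was 1.51-fold dimmer on LysM(+), a call lost when each array was centred on its median. Hnmt, which inactivates histamine, had 11.34 and 11.06.

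Downstream of the receptors, genes for Gs alpha, for 3 adenylyl cyclases and for protein kinase A were above background on both arrays. Rapgef3, an Epac gene named after its values were seen, was not, at 4.94 and 5.34. Rapgef4, the other Epac gene listed, and the effector gene Crem were not analysed here. Gnas, the gene of the Gs alpha subunit, had values of 15.87 and 15.93. Beside the counts that follow, the shares over all named genes were 41.5% above background on both arrays, 5.07% higher and 1.91% lower. Of the adenylyl cyclases and Gs alpha genes, 4 of 11 were above background and 0 counted as differing; the cyclases were Adcy7 (11.35 and 11.03), Adcy3 (9.60 and 9.58) and Adcy9 (7.81 and 7.89). Of 12 effector genes, 10 were above background and 1 was counted as higher. This was Prkar2b, a regulatory subunit of protein kinase A, with 9.40 and 8.75, 1.58-fold brighter on LysM(+), a call lost after quantile normalization or loess. The other kinase subunit genes Prkar1a (13.49 and 13.09), Prkacb (13.18 and 13.00) and Prkaca (11.25 and 10.86) and the CREB coactivator gene Crtc2 (12.61 and 12.77) differed by less than 1.5-fold. Of 15 phosphodiesterase genes, 7 were above background on both arrays and 1 was counted as higher, Pde3b, with 8.21 and 6.90, or 2.49-fold. Pde1b (10.70 and 10.92), Pde8a (10.19 and 9.93), Pde4b (9.23 and 9.67) and Pde3a (8.42 and 8.60) were not counted.

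Genes that switch receptors off went both ways. Receptor kinases phosphorylate active receptors, and arrestins then uncouple them from G proteins. Of 5 measured, 4 were above background on both arrays, 1 was counted as higher and 1 as lower, beside 41.5%, 5.07% and 1.91% of all named genes. Grk3 had values of 8.96 and 8.21, 1.68-fold brighter on the LysM(+) array. Grk5 had 8.36 and 9.36, 1.99-fold dimmer there. Grk6 (7.66 and 7.49) and the beta-arrestin gene Arrb1 (14.16 and 14.16) were not counted.

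Genes known to be induced by cAMP were counted in both directions. Of 14 measured, 8 were above background on both arrays, 3 were counted as higher on the LysM(+) array and 1 as lower, with a median difference of 0.42. That median takes in Nr4a2, Nr4a3 and Arg1, which were below background on both arrays. The shares over all named genes were 41.5% above background on both arrays, 5.07% higher and 1.91% lower, with a median difference of -0.01. Fos and Dusp1, which growth factors induce too, were 4.29-fold and 2.05-fold brighter, and Il10, an anti-inflammatory cytokine gene, 1.56-fold, a call lost after loess. Sik1 was 3.31-fold dimmer, with values of 6.65 and 8.37, the first not above background. What lay behind these differences was not tested. Thbs1 (10.52 and 9.95), Vegfa (9.05 and 9.59) and Cebpb (7.88 and 7.83) were not counted on the values as deposited, but Thbs1 was counted as higher after centring, and Vegfa as lower after quantile normalization or loess.

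Macrophage markers were bright on both arrays, and some markers of other cells differed between them. All 10 macrophage markers measured were above background, with values from 12.41 to 19.04, beside 41.5% of all named genes above it on both arrays. As deposited 0 of the 10 were counted as differing, and after quantile normalization or loess 1, Mertk, was counted as lower. The shares over all named genes, as deposited, were 5.07% higher and 1.91% lower. Of 9 neutrophil markers, 3 were counted as higher on the LysM(+) array (Ltf, Elane and Retnlg), and Csf3r was counted as lower after quantile normalization or loess. The summed unlogged values of the 9 were 110346 and 88533. Ngp, the brightest of them at 16.32 and 15.92 and not counted as differing, weighs most in these sums. Of 7 megakaryocyte and platelet markers, 5 were above background on both arrays and 2 were counted as higher (Ppbp and Pf4). Itga2b (-0.21), Gp9 (-0.07) and Itgb3 (-0.07), also above background, were slightly dimmer on LysM(+) and not counted. The sums of the 7 were 6075 and 2913, in which Pf4, the brightest at 12.17 and 10.94, weighs most. Of 9 fibroblast and stromal markers, 5 were above background on both arrays and 2 were counted as lower on LysM(+), Col1a2 (-0.61) and Postn (-0.59), neither of which was counted after centring; the sums were 2999 and 3644. Of 5 erythroid markers, Tfrc (-0.81) was above background and counted as lower. The other 4, Klf1, Epor, Alas2 and Gata1, were below background on both arrays, with differences from -0.19 to -0.09. The part of other cell types in the higher Ptger4 and Calcrl values was not tested. Lymphocytes are known to use Ptger4 too. Of 8 T and NK cell markers measured, 7 were below background on both arrays, Cd3e, Cd3d and Cd3g among them, and Cd4 was above it, at 9.97 and 10.19. All 6 B cell markers measured were below it. Of 10 mast cell and basophil markers, Hdc alone was above it. Of 8 dendritic cell markers, 2 were above it on both arrays, Ccr7 (8.76 and 8.82) and Itgax (7.55 and 7.67), and 0 were counted as differing.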

How the data were processed

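The deposited log2 values, 1 per probe set and array, came from RMA run by the authors in the Affymetrix program Expression Console, as the submitters' processing notes state. Neither versions nor genome build nor log base are stated; base 2 is what RMA usually gives. The values reach 19.5, above what RMA commonly yields, and some later transformation may have been applied; every fold depends on this reading. RMA sets both arrays to nearly one distribution, so a shift of all genes would not show. Of 28846 probe sets, 19572 had 1 gene symbol and 9274 had none here, controls included. All 19572 matched RefSeq (GRCm38.p6) by Entrez ID, giving 19505 genes; a gene took the mean of its probe sets, and each of the 6 receptors had 1.

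A gene was counted as differing at 1.5-fold or more (LysM(+) minus TB/TB) with its brighter value above the highest background control. With 1 array per group no test was run. The named genes are the 6 receptors, the melanocortin receptors, the Calcrl partners and, per list, up to 4 counted genes with the largest difference and up to 4 more of the brightest above background; the marker genes, peptide ligand genes and any others were named after their values were seen. Members and lists were chosen with earlier results of these data known. Alternatives were other background limits, folds of 2 and of 25% over 1, centring, quantile normalization, loess (span 0.4) and the brightest probe set. Scripts ran in Python 3.11.15 with pandas 2.3.3 and numpy 2.4.6 and were tested on simulated data.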

Additional observations from a re-analysis of the deposited data

How the results depend on the processing

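The direction of all 6 receptor differences was kept under centring, quantile normalization and loess; the brightest probe set changes nothing here, since each has 1 probe set. The count above background was 2 or 3 under the limits chosen at the start, Ptger2 being the third, and 5 against controls with a GC count of 8 to 18, a limit added after the values were seen. The median difference of the receptors above background was then 0.15, and 0.31 after loess, where Ptger4 differed by 0.22 and Calcrl by 0.40. The count of receptors apart by the fold threshold was 0 at 1.5-fold and at 2-fold, and 2 at a 25% difference (Ptger4 and Calcrl). These fold counts use the deposited values, and Ptger4 fell under a 25% difference after quantile normalization or loess. No paired analysis was possible because each group had 1 array, and for the same reason no array could be left out. Signal over background is known only through the controls and the silent receptor genes, so receptors inside their range may be expressed at a level these arrays do not resolve.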

Other observations

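Among the Gs-coupled receptors the largest difference lay below background. Gipr, the receptor for the gut hormone GIP, had values of 3.92 in LysM(+) and 4.95 in TB/TB, 2.05-fold apart, and was named after its values were seen. Dpp4, a surface peptidase gene of the adenosine list, had 5.51 and 4.64, 1.82-fold apart and below background on both arrays, and was also chosen after its values were seen.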
